A study of Homo sapiens with 6 samples.

Results

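Serpins are a superfamily of protease inhibitors, and 9 of their genes were followed in 6 RNA libraries from sorted breast cancer cells: SERPINA1, SERPINA3, SERPINB1, SERPINB2, SERPINB3, SERPINB5, SERPINB6, SERPINE2 and SERPING1. They were found by matching the Entrez Gene IDs of the deposited table to these symbols. All 9 were in the table, which holds 34 protein-coding serpin genes among 18795 genes in all. Of these, 8 averaged 1 FPKM or more and were tested, and SERPING1 was not. FPKM scales fragment counts by transcript length and by mapped fragments, so levels of different genes can be set side by side.

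The cells were MDA-MB-468 and HCC70, a pair of established human lines of basal-like breast cancer, a tumour type that lacks hormone receptors and makes keratins of the basal layer. Each line was detached with trypsin, fixed in methanol, stained and sorted into K18+Vim+ cells (keratin 18 with vimentin), K18+K14+ cells (keratin 18 with keratin 14) and K18+ cells. There was 1 library per line and population, so n = 2 per population and n = 3 per line. The lines were grown in different media, MDA-MB-468 in Leibovitz L15 and HCC70 in RPMI, both with bovine serum, and line and medium cannot be told apart. No label speaks of separate cultures. With population and line as terms, the p-values below rest on how far the differences between populations disagree between the lines. That spread may be partly technical, and it is not the spread of repeated cultures. The 3 libraries of a line are its 3 sorted populations and not repeats.

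A serpin works as a suicide substrate. The protease cuts an exposed reactive centre loop near the carboxyl end of the inhibitor, the serpin folds the cut loop into its main sheet, and the protease is dragged along and distorted. Clade A serpins such as SERPINA1 and SERPINA3 are secreted and best known from liver and the acute-phase response. Clade B serpins lack a classical secretion signal and act mostly inside cells, and in epithelium they shield cells from lysosomal and granule proteases. SERPINB2 and SERPINE2 inhibit urokinase, the activator of plasminogen.

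The sequences of one neighbouring pair of genes are shown first, because they limit how SERPINB3 can be read. SERPINB3 and SERPINB4 encode the squamous cell carcinoma antigens, which differ in their reactive centre loops and elsewhere. Their coding sequences, taken from GENCODE 29 transcripts, both have 1173 bases and differ at 56 of them, so that 95.2% are identical. Of the 1124 windows of 50 bases in SERPINB3, 260 (23.1%) occur unchanged in SERPINB4, and the longest identical run has 129 bases. In the coding sequences of the other 8 members, 0 such windows were shared with another serpin. The stretch of 120 bases with the most differences, bases 952 to 1071 of both coding sequences, holds 18 of the 56. It covers codons of the reactive centre loop, and the capitals mark the bases that differ.
SERPINB3: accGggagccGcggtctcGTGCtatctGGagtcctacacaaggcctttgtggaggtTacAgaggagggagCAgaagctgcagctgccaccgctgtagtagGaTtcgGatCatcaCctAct
SERPINB4: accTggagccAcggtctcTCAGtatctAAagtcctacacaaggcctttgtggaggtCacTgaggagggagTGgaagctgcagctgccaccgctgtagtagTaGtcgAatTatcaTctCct
The way shared fragments were divided between these genes is not given in the sources used here, so the level of SERPINB3 is uncertain with respect to SERPINB4.

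Several facts of the libraries touch the results. KRT14 and VIM, the genes of the sort antigens, were highest in the libraries sorted for them within each line. The library labelled K18+Vim+ of MDA-MB-468 went against its line. SMAD4 and RB1, both deleted in MDA-MB-468, were listed there at 5.19 and 6.68 FPKM, against 0.310 to 0.566 and 0.269 to 0.307 FPKM in the other libraries of the line. The amplified EGFR gene was listed at 10.4 FPKM, against 70.7 and 153 FPKM. A list of 6 luminal markers summed to 226 FPKM in it, against 2506 and 4471 FPKM in the other MDA-MB-468 libraries and 2161 to 2573 FPKM in HCC70. KRT18, a sort antigen and one of the 6, stood at 67.7 FPKM in it, against 464 and 569 FPKM. The 4 basal markers, KRT14 among them, summed to 45.7 FPKM, against 530 and 1268 FPKM, and to 161 to 450 FPKM in HCC70. The 5 mesenchymal markers, VIM among them, summed to 294 FPKM, against 38.4 and 19.7 FPKM, and to 22.1 to 138 FPKM in HCC70. The 4 hepatocyte genes summed to 0.699 to 2.77 FPKM over the 6 libraries and the 4 endothelial genes to 0.400 to 1.47 FPKM. The 8 immune genes summed to 4.19 to 54.0 FPKM in MDA-MB-468 and 53.2 to 139 FPKM in HCC70, most of it CD14, a monocyte receptor for bacterial lipopolysaccharide, at 2.44 to 50.7 FPKM in MDA-MB-468 and 51.4 to 138 FPKM in HCC70. PTPRC, the common leukocyte antigen, reached at most 1.41 FPKM. CD14 fell in MDA-MB-468, as some serpins below did (-2.33, limma adjusted p = 0.0421), and its part in those results was not tested. Fewer cells that make a transcript and less of it per cell cannot be told apart in these bulk libraries.

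Of the secreted clade A inhibitors, SERPINA3 had the widest range of the 9 members and SERPINA1 was low in both lines. SERPINA3 (Entrez Gene 12), alpha-1-antichymotrypsin, an inhibitor of cathepsin G and mast cell chymase, stood at 3.45 FPKM in the library labelled K18+Vim+ of MDA-MB-468, 14.3 FPKM in MDA-MB-468 K18+K14+ and 45.7 FPKM in MDA-MB-468 K18+. In HCC70 it stood at 300 FPKM in K18+Vim+, 374 FPKM in K18+K14+ and 228 FPKM in K18+ cells. The 3 HCC70 libraries were all above the MDA-MB-468 libraries. Within HCC70 SERPINA3 lay above 97.2% to 98.6% of the genes tested and made up 53.6% to 67.9% of the summed FPKM of the 9 serpins. In MDA-MB-468 that share was 5.85% to 32.1%. SERPINA1 (Entrez Gene 5265), alpha-1-antitrypsin, the main plasma inhibitor of neutrophil elastase, was far lower. It lay at the table's floor, 0.1 FPKM, in the library labelled K18+Vim+ of MDA-MB-468, at 2.41 FPKM in MDA-MB-468 K18+K14+ and at 1.07 FPKM in MDA-MB-468 K18+. The HCC70 values were 6.03 FPKM in K18+Vim+, 1.83 FPKM in K18+K14+ and 1.70 FPKM in K18+ cells, so the lines overlapped.

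**Figure D1:**
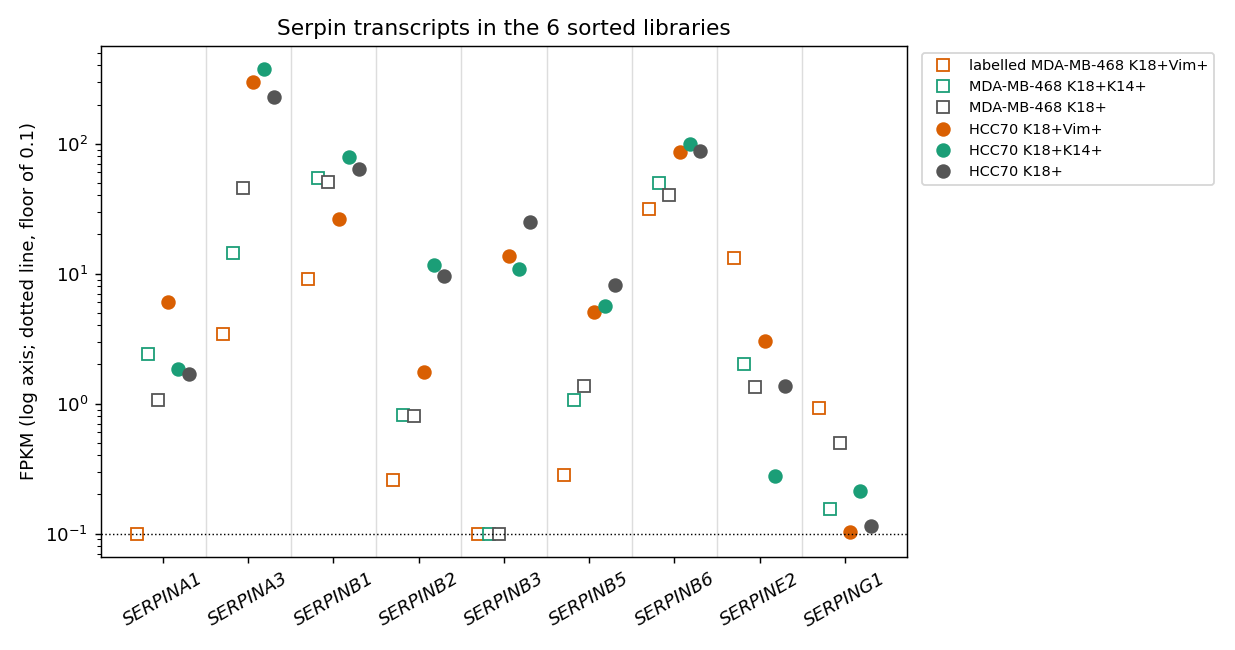
FPKM of the 9 serpin transcripts (vertical log axis, dotted line at the floor of 0.1 FPKM) in each of the 6 libraries, with open squares for MDA-MB-468, filled circles for HCC70 and colours for the sorted populations. SERPINA3 lies between 228 and 374 FPKM in HCC70 and between 3.45 and 45.7 FPKM in MDA-MB-468, and SERPINB3 is at the floor in the 3 MDA-MB-468 libraries.

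A pair of clade B genes was well expressed in both lines. SERPINB6 (Entrez Gene 5269), an intracellular inhibitor of trypsin-like proteases and cathepsin G, stood at 31.6 FPKM in the library labelled K18+Vim+ of MDA-MB-468, 49.99 FPKM in MDA-MB-468 K18+K14+ and 40.3 FPKM in MDA-MB-468 K18+. In HCC70 it stood at 85.8 FPKM in K18+Vim+, 99.0 FPKM in K18+K14+ and 87.6 FPKM in K18+ cells. It varied least of the 8 members tested, with a log2 range of 1.62 over the 6 libraries, and its lines did not overlap. SERPINB1 (Entrez Gene 1992), which inhibits the granule proteases elastase, cathepsin G and proteinase 3, stood at 9.03 FPKM in the library labelled K18+Vim+ of MDA-MB-468, 53.9 FPKM in MDA-MB-468 K18+K14+ and 51.0 FPKM in MDA-MB-468 K18+. Its HCC70 values were 26.4 FPKM in K18+Vim+, 79.3 FPKM in K18+K14+ and 63.6 FPKM in K18+ cells. The K18+Vim+ library was the lowest of each line for SERPINB1, and by a smaller margin for SERPINB6. The targets ELANE and CTSG were at the floor in all 6 libraries.

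The 3 clade B members that lie on chromosome 18 were higher in HCC70. SERPINB3 (Entrez Gene 6317), an inhibitor of cysteine cathepsins, was listed at the floor in all 3 MDA-MB-468 libraries. In HCC70 it stood at 13.6 FPKM in K18+Vim+, 10.9 FPKM in K18+K14+ and 24.7 FPKM in K18+ cells. SERPINB4 was likewise at the floor in MDA-MB-468, and stood at 11.1 FPKM in HCC70 K18+Vim+, 8.58 FPKM in HCC70 K18+K14+ and 22.2 FPKM in HCC70 K18+. The ratio of SERPINB3 to SERPINB4 ran from 1.11 to 1.27 over the HCC70 libraries. SERPINB2 (Entrez Gene 5055), plasminogen activator inhibitor 2, stood at 0.260 FPKM in the library labelled K18+Vim+ of MDA-MB-468, 0.818 FPKM in MDA-MB-468 K18+K14+ and 0.800 FPKM in MDA-MB-468 K18+. The HCC70 values were 1.75 FPKM in K18+Vim+, 11.7 FPKM in K18+K14+ and 9.64 FPKM in K18+ cells. As with SERPINB1 and SERPINB6, the lowest library of each line was the K18+Vim+ one, and this also held for SERPINB5 below. SERPINB5 (Entrez Gene 5268) encodes maspin, which does not inhibit proteases and is known from mammary myoepithelial cells, where it was described as a tumour suppressor. It stood at 0.282 FPKM in the library labelled K18+Vim+ of MDA-MB-468, 1.06 FPKM in MDA-MB-468 K18+K14+ and 1.36 FPKM in MDA-MB-468 K18+, against 5.06 FPKM in HCC70 K18+Vim+, 5.67 FPKM in HCC70 K18+K14+ and 8.22 FPKM in HCC70 K18+. All HCC70 libraries were above all MDA-MB-468 libraries for each of these 3 genes.

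SERPINE2 and SERPING1 both had their highest value in the library labelled K18+Vim+ of MDA-MB-468, and differed in HCC70. SERPINE2 (Entrez Gene 5270), protease nexin 1, a matrix-bound inhibitor of thrombin and urokinase, stood at 13.2 FPKM there, at 2.03 FPKM in MDA-MB-468 K18+K14+ and at 1.35 FPKM in MDA-MB-468 K18+. In HCC70 it stood at 3.05 FPKM in K18+Vim+, 0.275 FPKM in K18+K14+ and 1.36 FPKM in K18+ cells. The K18+Vim+ library was thus the highest of each line. SERPING1 (Entrez Gene 710), the C1 inhibitor of the complement and contact systems, was listed at 0.922 FPKM in the library labelled K18+Vim+ of MDA-MB-468, 0.155 FPKM in MDA-MB-468 K18+K14+ and 0.494 FPKM in MDA-MB-468 K18+. In HCC70 it was listed at 0.102 FPKM in K18+Vim+, 0.212 FPKM in K18+K14+ and 0.114 FPKM in K18+ cells, so K18+Vim+ was its lowest there. All its values were under 1 FPKM.

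The order of the members was not the same in both lines. In MDA-MB-468 SERPINB6 averaged 40.6 ± 9.20 FPKM (SD, n = 3 libraries), SERPINB1 38.0 ± 25.1 FPKM, SERPINA3 21.1 ± 21.9 FPKM and SERPINE2 5.54 ± 6.67 FPKM, and each of these overlapped the next in its range. The other 5 members stayed at or under 2.41 FPKM there. These ranges include the library labelled K18+Vim+ of MDA-MB-468, which went against its line. In the K18+K14+ and K18+ libraries of that line SERPINB1 stood at 53.9 and 51.0 FPKM, above SERPINB6 at 49.99 and 40.3 FPKM. SERPINA3 stood at 14.3 and 45.7 FPKM in them. SERPINE2 stood at 2.03 and 1.35 FPKM, below SERPINA3 and within the range of SERPINA1 (2.41 and 1.07 FPKM). In HCC70 SERPINA3 averaged 301 ± 73.1 FPKM, SERPINB6 90.8 ± 7.16 FPKM and SERPINB1 56.5 ± 27.1 FPKM, and the ranges of these 3 did not overlap. Below them SERPINB3 at 16.4 ± 7.33 FPKM overlapped SERPINB2 at 7.71 ± 5.27 FPKM. SERPINB5 at 6.32 ± 1.68 FPKM overlapped both SERPINB2 and SERPINA1, which averaged 3.19 ± 2.47 FPKM. SERPINE2 followed at 1.56 ± 1.40 FPKM, overlapping SERPINA1, and SERPING1 at 0.143 ± 0.0603 FPKM.

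The comparison of MDA-MB-468 with HCC70 asks which serpins separate the lines whatever the population. SERPINA3, SERPINB3, SERPINB2 and SERPINB5 fell in MDA-MB-468, and 0 members rose. Without the filter on low values 0 genes were called between the lines, and these 4 had limma adjusted p-values of 0.122 to 0.173. The fit used log2(FPKM + 1) values with limma, population and line as terms, and Benjamini-Hochberg adjustment over 12454 genes. The log2 difference of SERPINA3 was -4.33 ± 0.69 (SE, n = 3 per line, limma adjusted p = 0.0186). Those of SERPINB2 and SERPINB5 were -2.17 ± 0.43 (limma adjusted p = 0.0309) and -1.97 ± 0.33 (limma adjusted p = 0.0206). For SERPINB3 it was -3.91 ± 0.36 (limma adjusted p = 0.00473), a size that is set by the floor in MDA-MB-468, so no fold is given. SERPINB6 differed by -1.16 ± 0.32 and did not pass (limma adjusted p = 0.0625). SERPINB1 (-0.77), SERPINA1 (-0.93) and SERPINE2 (1.02) had adjusted p-values of 0.191, 0.314 and 0.162.

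Over all genes tested, 4.54% were called higher and 7.68% lower in MDA-MB-468, or 12.2% in all, with a median difference of 0.01. The 4 serpins called lower are 4 of the 8 tested. SERPINB2, SERPINB3 and SERPINB5 averaged 0.626, 0.1 and 0.900 FPKM in MDA-MB-468 and passed the filter on low values through HCC70, so that this count is a description. The libraries of the lines did not overlap for 5 members, all lower in MDA-MB-468, against 21.0% of all genes lower and 20.1% higher without overlap. Without both K18+Vim+ libraries the same 4 members were called, at -3.45 for SERPINA3, -2.69 for SERPINB2, -3.99 for SERPINB3 and -1.83 for SERPINB5, with limma adjusted p-values from 0.000246 to 0.00508. That fit has fewer residual degrees of freedom than the main fit. Its p-values therefore cannot be read as stronger than those of all libraries. When single libraries were left out, SERPINB3 was called each time. SERPINA3 was not called without HCC70 K18+K14+ (limma adjusted p = 0.0529), nor were SERPINB2 and SERPINB5 without any one of the K18+ and K18+K14+ libraries of either line (0.0655 to 0.168).

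**Figure D2:**
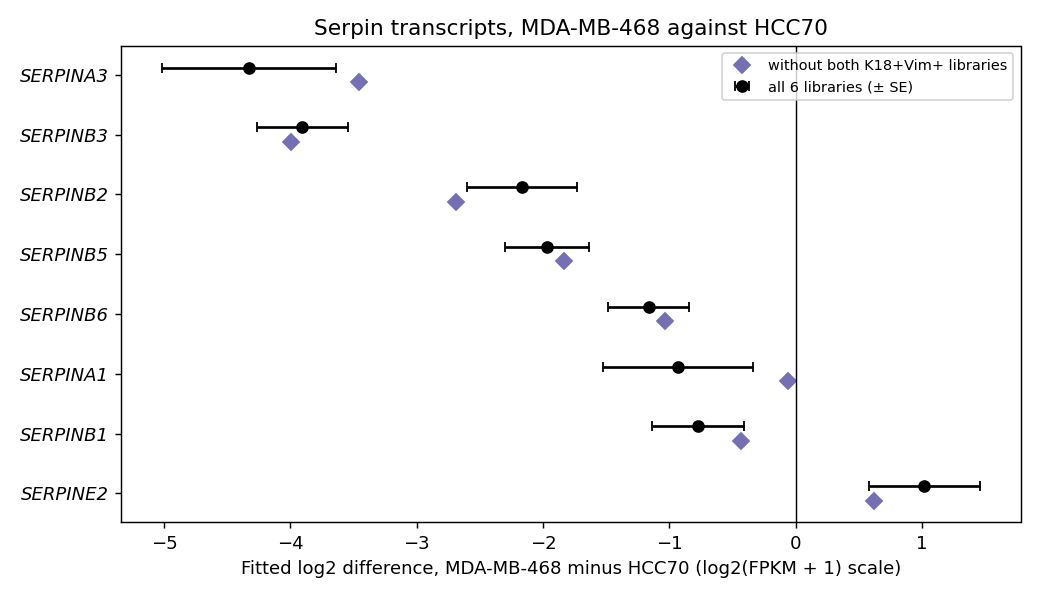
Fitted log2 difference of MDA-MB-468 minus HCC70 on the log2(FPKM + 1) scale (horizontal axis) for the 8 serpins tested, with circles and SE bars for all 6 libraries and diamonds for the 4 K18+ and K18+K14+ libraries. SERPINA3, SERPINB3, SERPINB2 and SERPINB5 lie farthest to the left, between -4.33 and -1.97, and SERPINE2 is at 1.02.

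SERPINB2, SERPINB3 and SERPINB5 all fell in MDA-MB-468 and lie in the same cluster. The promoter sequences of SERPINB2 and SERPINB5 are shown. They come from RefSeq (GRCh38.p14) and run from 250 bases before to 50 bases after the transcript start, on the plus strand. Capitals mark matches to TATAAA and TGANTCA, searched on both strands.
SERPINB2, chr18:63887455-63887754: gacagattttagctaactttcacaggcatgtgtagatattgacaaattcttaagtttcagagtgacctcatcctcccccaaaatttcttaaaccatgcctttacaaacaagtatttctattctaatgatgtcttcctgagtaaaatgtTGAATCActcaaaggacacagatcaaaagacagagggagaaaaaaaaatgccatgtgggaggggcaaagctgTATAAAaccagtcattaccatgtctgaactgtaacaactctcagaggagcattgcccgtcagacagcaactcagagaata
SERPINB5, chr18:63476708-63477007: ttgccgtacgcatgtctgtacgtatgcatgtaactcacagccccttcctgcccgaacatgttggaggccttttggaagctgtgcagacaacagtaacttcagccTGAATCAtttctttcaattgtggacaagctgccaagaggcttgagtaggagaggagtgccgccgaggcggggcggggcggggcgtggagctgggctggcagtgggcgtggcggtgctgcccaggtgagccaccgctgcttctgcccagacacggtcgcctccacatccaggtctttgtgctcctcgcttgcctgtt
TGANTCA is a loose form of the AP-1 motif, whose centre base is usually G or C, and both matches shown here have A at the centre. It began 102 bases before the start of SERPINB2 and 146 bases before that of SERPINB5. It occurred in windows of 2 of the 8 members found in the promoter table and in 7.71% of its 35116 windows. TATAAA occurred in 2 of 8 members, SERPINB2 and SERPINB6, and in 11.5% of all windows. TTCNNNGAA, as bound by STAT factors, occurred in 1 of 8 and 7.66%, TTNNGNAAT, as bound by C/EBP factors, in 3 of 8 and 3862 of the 35116 windows, and a motif bound by NF-kappaB in 0 of 8 and 1.91%. No match overlapped a match to another of these motifs. A match of letters is a description and not a site.

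Serpin genes of clades A and B lie in clusters, and their neighbours were set beside them in chromosome order. On chromosome 18 the order was SERPINB5, SERPINB12, SERPINB13, SERPINB4, SERPINB3, SERPINB11, SERPINB7, SERPINB2, SERPINB10 and SERPINB8, with HMSD before the last. Of these 10 serpins, 6 reached 1 FPKM in some library, and 5 of the 6 were lower in all MDA-MB-468 than in all HCC70 libraries, beside the 21.0% of all genes given above. SERPINB2, SERPINB3, SERPINB4 and SERPINB8 reached 1 FPKM in HCC70 libraries alone, so that this count leans towards lower values in MDA-MB-468 and is a description. The exception was SERPINB7, at 0.134 FPKM in the library labelled K18+Vim+ of MDA-MB-468 and 1.71 and 2.18 FPKM in the K18+K14+ and K18+ libraries of that line, against at most 0.210 FPKM in HCC70. Of the 8 flanking genes, 4 reached 1 FPKM and 1 of these, KDSR, was lower in all MDA-MB-468 libraries.

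The cluster on chromosome 14 has 9 serpins, of which 3 reached 1 FPKM and 2 of these, SERPINA3 and SERPINA5, were lower in all MDA-MB-468 libraries. So were 3 of the 7 flanking genes that reached 1 FPKM, IFI27, DICER1 and CLMN, beside 21.0% of all genes. SERPINA5, the protein C inhibitor, next to SERPINA3, was at the floor in the 3 MDA-MB-468 libraries and stood at 39.5 FPKM in HCC70 K18+Vim+, 6.29 FPKM in K18+K14+ and 13.3 FPKM in K18+ cells. SERPINA5 thus reached 1 FPKM in HCC70 alone, so the serpin count is a description. Within HCC70 its order of populations differed from that of SERPINA3, whose highest value was in K18+K14+ cells. On chromosome 6 SERPINB1, SERPINB9 and SERPINB6 follow each other, and SERPINB9 and SERPINB6 were lower in all MDA-MB-468 libraries. Their 8 flanking genes included 0 such genes and 3 that were higher in all MDA-MB-468 libraries, beside 21.0% and 20.1% of all genes. Of these 3, MYLK4 reached 1 FPKM in MDA-MB-468 K18+ alone (2.07 FPKM), so these counts too are a description.

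K18+Vim+ cells were set against K18+ cells, which asks which serpins go with vimentin. SERPINB1 was lower and SERPINE2 higher in the K18+Vim+ library of each line, and none of the differences passed the test. Ratios are given here as log2 ratios of FPKM + 1 centred on all genes, whose medians were -0.04 in MDA-MB-468 and -0.16 in HCC70. For SERPINB1 this gave -2.33 with the library labelled K18+Vim+ of MDA-MB-468 and -1.07 in HCC70. For SERPINE2 it gave 2.64 and 0.94. SERPINB2 had -0.48 and -1.79, and SERPINB5 -0.84 and -0.44. For SERPINA3 the ratio was -3.35 with the library labelled K18+Vim+ of MDA-MB-468 and 0.56 in HCC70, and for SERPINA1 -0.87 and 1.55, so that both pointed opposite ways in the lines.

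With limma the fitted log2 difference of SERPINB1 was -1.80 ± 0.44 (SE, n = 2 each, limma adjusted p = 0.863), and SERPINE2 differed by 1.69 ± 0.54 (limma adjusted p = 0.863). Of all 12454 genes 0 passed, or 0%, with 532 at an unadjusted p under 0.05. SERPINB1 was the 1 member of 8 at least 2-fold lower in both lines, which held for 0.715% of all genes, on ratios not centred on the median. No member was at least 2-fold higher in both, as 0.377% of all genes were. A total of 4 members were lower in both lines and 1 higher, against 33.9% and 16.5% of all genes, and 3 and 1 once ratios were centred on the median of all genes, against 25.8% of all genes each way. These values stand beside the luminal and basal marker sums given above, which were also low in the library labelled K18+Vim+ of MDA-MB-468. The part of these sums in the result was not tested. Without that library the fitted differences were -1.29 for SERPINB1 and 1.09 for SERPINE2, each with a limma adjusted p of 0.894. Without HCC70 K18+Vim+, which leaves the library labelled K18+Vim+ of MDA-MB-468 as the only one of its population, SERPINA3 (-2.81), SERPINB1 (-2.32) and SERPINE2 (2.29) were called, with limma adjusted p-values of 0.0305, 0.0114 and 0.0192.

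K18+Vim+ cells were also set against K18+K14+ cells, which asks how the vimentin and keratin 14 populations differ from each other. SERPINE2 was at least 2-fold higher and SERPINB1 at least 2-fold lower in the K18+Vim+ library of both lines, which held for 0.851% and 0.915% of all genes. SERPINE2 stood at 13.2 FPKM in the library labelled K18+Vim+ of MDA-MB-468 and 3.05 FPKM in HCC70 K18+Vim+, against 2.03 and 0.275 FPKM in the K18+K14+ libraries. Its fitted difference was 1.95 ± 0.54 (SE, n = 2 each, limma adjusted p = 0.682), and SERPINB1 differed by -2.00 ± 0.44 (limma adjusted p = 0.682). SERPINB2 differed by -1.37 ± 0.53 (limma adjusted p = 0.682), with most of it in HCC70. Counting direction alone, 5 members were lower in both lines and 1 higher, against 23.7% and 25.6% of all genes.

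None of the genes passed in this comparison (0%), and 680 had an unadjusted p under 0.05. Without the library labelled K18+Vim+ of MDA-MB-468 the differences were -1.49 for SERPINB1, -2.15 for SERPINB2 and 1.35 for SERPINE2, with limma adjusted p-values of 0.689, 0.266 and 0.924. Without HCC70 K18+Vim+ SERPINA3 (-2.36), SERPINB1 (-2.51) and SERPINE2 (2.55) were called, with limma adjusted p-values of 0.0495, 0.00714 and 0.0105.

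**Figure D3:**
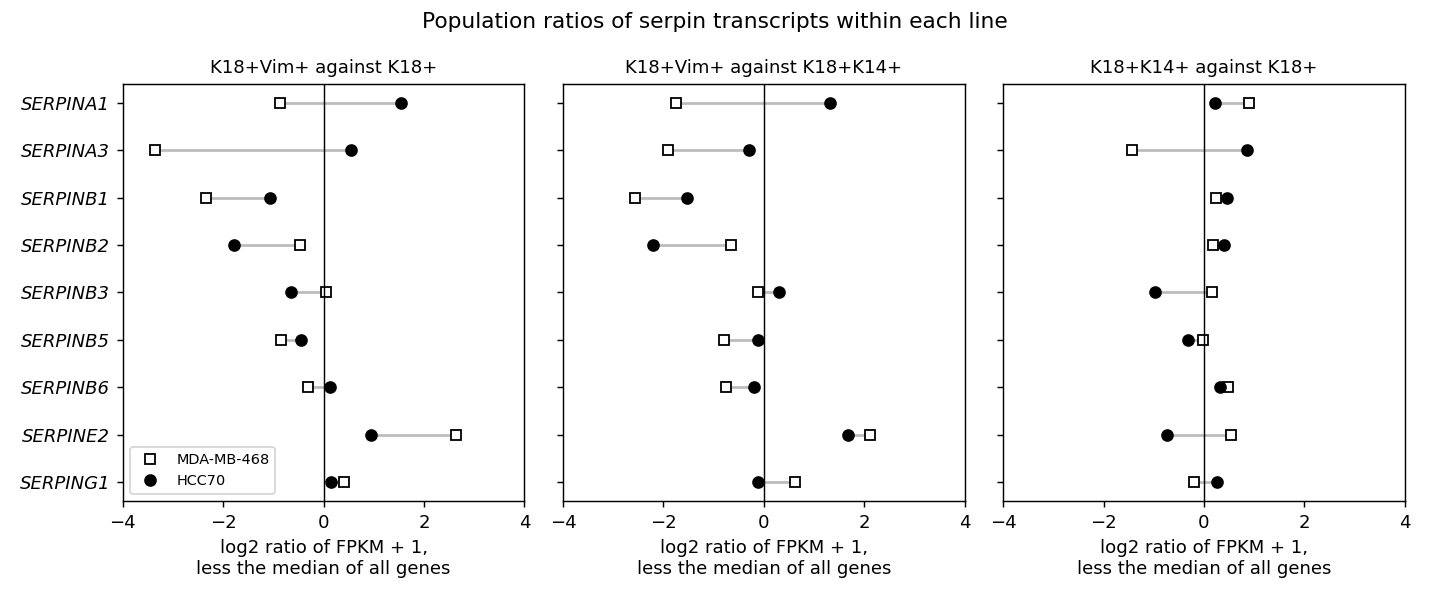
Log2 ratio of FPKM + 1 less the median of all genes (horizontal axis) for the 9 serpins in each comparison of populations, with open squares for MDA-MB-468, where K18+Vim+ is the library so labelled, and filled circles for HCC70. In both comparisons with K18+Vim+, SERPINB1 lies left of 0 and SERPINE2 right of 0 in both lines, and SERPINA1 lies on opposite sides.

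In K18+K14+ against K18+ cells, which asks what goes with keratin 14, no serpin differed by 2-fold in the same direction in both lines. SERPINA3 stood at 14.3 FPKM in MDA-MB-468 K18+K14+ and 374 FPKM in HCC70 K18+K14+, against 45.7 and 228 FPKM in the K18+ libraries, so its log2 ratio was -1.61 in MDA-MB-468 and 0.71 in HCC70. SERPINB3 stood at 10.9 FPKM in HCC70 K18+K14+ cells against 24.7 FPKM in K18+ cells, a log2 ratio of -1.11, and was at the floor in MDA-MB-468. SERPINA1, SERPINB1, SERPINB2 and SERPINB6 were higher in both lines and SERPINB5 lower, with log2 ratios of 0.72 at most. These are 4 and 1 of 8 members, against 20.2% and 43.7% of all genes, or 31.7% each way once centred on the median. Some of these ratios were close to 0. They were 0.01 for SERPINB2 and 0.08 for SERPINB1 in MDA-MB-468, and 0.07 for SERPINA1 in HCC70. The count of direction is thus a description.

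A 2-fold ratio in both lines was reached by 0.257% of all genes upwards and 0.739% downwards. Fitted log2 differences of the 8 members ran from -0.56 for SERPINB3 to 0.40 for SERPINA1. With limma 0 of 12454 genes passed (0%), and 428 had an unadjusted p under 0.05. The median of all genes was -0.17 in MDA-MB-468 and -0.15 in HCC70.

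The proteases, partners and other inhibitors around these serpins were followed as lists. Between populations 0 genes of any list passed. Between the lines, among 11 tested genes of plasminogen activation 2 fell in MDA-MB-468 and 0 rose, with a median difference of -1.10. The 2 were VLDLR (-1.84, limma adjusted p = 0.0311) and LRP1 (-1.48, limma adjusted p = 0.0439), receptors that clear complexes of serpins with their proteases. LRP1 averaged 0.880 FPKM in MDA-MB-468 and passed the filter on low values through HCC70. The count is thus a description, beside 7.68% of all genes called lower. Urokinase itself, PLAU, stood at 0.612 FPKM in the library labelled K18+Vim+ of MDA-MB-468 and at 5.28 and 5.94 FPKM in the K18+K14+ and K18+ libraries of that line, against 2.78 to 3.63 FPKM in HCC70.

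Of 14 tested target proteases 1 rose and 2 fell in MDA-MB-468, with a median of -0.41, beside 4.54% and 7.68% of all genes. KLK8, a kallikrein of skin, rose by 2.44 (limma adjusted p = 0.0304). The epithelial serine protease PRSS22 differed by -3.19 (limma adjusted p = 0.0238) and the lysosomal cysteine protease CTSS, a known target of SERPINB3, by -1.75 (limma adjusted p = 0.0242).

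Among 17 tested inhibitors of other families 3 rose and 2 fell in MDA-MB-468, with a median of -0.35. The 3 that rose, TIMP3, A2M and RECK, averaged 0.115, 0.430 and 0.618 FPKM in HCC70 and passed the filter on low values through MDA-MB-468. CSTA averaged 0.481 FPKM in MDA-MB-468 and passed it through HCC70. The counts are therefore a description, beside 4.54% of all genes called higher and 7.68% called lower. The cystatin CSTA, which blocks cysteine cathepsins, was at the floor in 2 MDA-MB-468 libraries and at 1.24 FPKM in the library labelled K18+Vim+ of MDA-MB-468, against 49.97 to 131 FPKM in HCC70. WFDC2, a whey acidic protein of epithelia, stood at 3.22 to 5.41 FPKM against 342 to 373 FPKM. A2M, the broad plasma inhibitor alpha-2-macroglobulin, was on the other side, at 3.10 to 94.2 FPKM in MDA-MB-468 against 0.1 to 1.08 FPKM in HCC70.

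Of 16 tested acute-phase genes and regulators 3 fell and 0 rose in MDA-MB-468, with a median of -0.43. The 3 were ORM2, LCN2 and C3. ORM2 was at the floor in the 3 MDA-MB-468 libraries and passed the filter on low values through HCC70, so this count is a description. C3, the central complement protein, stood at 10.3 to 176 FPKM in MDA-MB-468, against 1072 to 1253 FPKM in HCC70 (difference -4.44 ± 0.76, SE, limma adjusted p = 0.0215). Among 10 tested complement partners, a list that also holds C3, 4 fell and 0 rose, with a median of -1.29. C1R, a protease that SERPING1 inhibits, was among them at -1.94 (limma adjusted p = 0.0466). Across all genes 7.68% were called lower, as above.

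In K18+Vim+ against K18+K14+ cells, 4 of the 14 target proteases, 3 of the 16 acute-phase genes and 2 of the 17 other inhibitors were at least 2-fold lower in both lines, beside the 0.915% of all genes given above, and none of them passed the test. The proteases were TMPRSS2 and the kallikreins KLK5, KLK7 and KLK8 of chromosome 19. The acute-phase genes were LCN2 and the related SAA1 and SAA2 of chromosome 11. Related genes are not independent, and the lists were chosen with earlier results of these data known. These counts are therefore a description. KLK8 stood at 11.9 FPKM in the library labelled K18+Vim+ of MDA-MB-468 and 5.02 FPKM in HCC70 K18+Vim+, against 524 FPKM in MDA-MB-468 K18+K14+ and 61.4 FPKM in HCC70 K18+K14+. SAA1, an acute-phase apolipoprotein, stood at 2.92 and 2.60 FPKM in the same K18+Vim+ libraries, against 132 and 20.4 FPKM in the K18+K14+ libraries. SLPI, a secreted inhibitor of neutrophil elastase that shares this target with SERPINA1 and SERPINB1, stood at 74.1 and 822 FPKM, against 2951 and 2052 FPKM. Each of these 3 genes was thus lower in HCC70 K18+Vim+ and in the library labelled K18+Vim+ of MDA-MB-468, as SERPINB1 was. The latter library went against its line. The fitted differences were -3.83 for SAA1 (limma adjusted p = 0.635) and -3.31 for SLPI (limma adjusted p = 0.682). The luminal and basal marker sums were also low in the library labelled K18+Vim+ of MDA-MB-468, and their part in these values was not tested.

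For the 3 members with the widest range, the genes with the most similar profile over the 6 libraries were sought among the genes tested. The measure was the root mean square distance between log2(FPKM + 1) profiles, each centred on its mean. For SERPINA3 these included TNFAIP2 (distance 0.38) and TGFBI (0.40), where the median gene was at 2.43. TNFAIP2, for example, stood at 13.7 to 202 FPKM in MDA-MB-468 and 1463 to 1719 FPKM in HCC70. For SERPINB3 they included SERPINB4 (0.13) and IFI44L (0.17), against a median of 2.03. For SERPINE2 they were MARVELD1 (0.31), GALNT16 (0.33) and CCND2 (0.35), against a median of 1.19. Like SERPINE2, all 3 were highest in the library labelled K18+Vim+ of MDA-MB-468, at 13.1, 5.94 and 7.32 FPKM. In every other library they stood at or under 3.76, 1.16 and 1.20 FPKM. Their likeness to SERPINE2 thus leans on that library, which went against its line, and was not tested without it.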

How the data were processed

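The values are FPKM by Entrez Gene ID, deposited by the authors for 6 libraries, with TopHat2 as the aligner and GRCh37 as the genome build per the submitters' processing notes. The sources used here do not name a counting tool or an annotation. RNA came from methanol-fixed cells, per the labels' protocols. Values have a floor of 0.1 FPKM, and the depth is unknown, so no counting intervals are given. Of 18807 rows, 7 with a blank value and the lower row of 5 repeated IDs were left out.

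Genes averaging 1 FPKM or more were fitted as log2(FPKM + 1) with limma 3.58.1 in R 4.3.3 (trend, population and line as terms, 2 residual degrees of freedom, two-sided, Benjamini-Hochberg, threshold 0.05). The line pairs the populations by the labels. The fit was tested on simulated data. The members and lists were chosen with earlier results of these data known. Outside the members, up to 3 genes per list and comparison were named by the size of the difference shared by both lines, and for the lines by the fitted difference, with sort antigens, line checks and the 3 nearest profiles, of which some genes are not reported here. The cluster neighbours, PLAU, LRP1, VLDLR, CTSS, C1R, ELANE, CTSG, CD14 and PTPRC were named after their values were seen. Symbols, gene order and promoters come from RefSeq (GRCh38.p14), and 18732 of 18795 IDs matched. Python 3.11.15, pandas 2.3.3, numpy 2.4.6 and matplotlib 3.10.9 were used. Alternatives were other pseudocounts and filters, quantile normalization, no trend, no term for the factor not compared, 4 libraries and leaving out each library.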

Additional observations from a re-analysis of the deposited data

Results flagged for a closer look

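SERPINA1 in K18+Vim+ against K18+K14+ cells moved in opposite directions in the lines, each by more than 2-fold, with a log2 ratio of FPKM + 1 of -1.63 in MDA-MB-468 and 1.31 in HCC70. The difference between the lines was not tested, since there was 1 library per line and population. The MDA-MB-468 ratio rests on the library labelled K18+Vim+ of MDA-MB-468, where SERPINA1 was listed at the floor.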

How the results depend on the processing

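Counts over all genes moved as follows. At an unadjusted p under 0.05 they were 428 for K18+K14+ against K18+, 532 for K18+Vim+ against K18+, 680 for K18+Vim+ against K18+K14+ and 4116 for the lines. The number of genes called between the lines was 1522, 0 without the filter on low values (the cause was not tested) and 3366 without both K18+Vim+ libraries. The fit without both K18+Vim+ libraries has fewer residual degrees of freedom than the main fit. Leaving out 1 library at a time gave 0 to 1, 0 to 1500 and 0 to 1988 for the population comparisons and 206 to 3360 for the lines, where a population left with 1 library is assumed to vary like the others. Without line as a term 0 genes were called in each population comparison. Without population as a term 1875 were called between the lines, and SERPINB6 was then called (limma adjusted p = 0.0378). The counts of members past 2-fold in both lines were recomputed with alternatives chosen after seeing the data. At a pseudocount of 0.1 they were 1 higher and 2 lower in K18+Vim+ against K18+ and 2 lower against K18+K14+. At a pseudocount of 5 and at a minimum of 5 FPKM, 0 members were higher against K18+K14+.

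The sign of SERPINA1 turned at a pseudocount of 0.1 in K18+Vim+ against K18+ (-0.39) and at 5 against K18+K14+ (0.0769). With 1 library left out, differences in K18+K14+ against K18+ ran from -0.50 to 1.29 for SERPINA1, -1.97 to 1.08 for SERPINA3, -0.15 to 0.54 for SERPINB1, -0.35 to 0.62 for SERPINB2 and -1.03 to 0.51 for SERPINE2. In K18+Vim+ against K18+ they ran from -1.07 to 1.55 for SERPINA1, -3.02 to 0.0267 for SERPINA3, -0.89 to 0.074 for SERPINB3 and -0.37 to 0.0019 for SERPINB6, and against K18+K14+ from -1.47 to 1.15 for SERPINA1, -2.36 to 0.26 for SERPINA3 and -0.20 to 0.50 for SERPINB3. SERPINB1 in both K18+Vim+ comparisons and SERPINE2 in both kept their sign under each alternative run.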

Other observations

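Of the 25 serpins that are no members, 7 had a mean of at least 1 FPKM, and 1 rose and 2 fell in MDA-MB-468 against HCC70. SERPINF1, which encodes pigment epithelium-derived factor, a secreted serpin that does not inhibit proteases, rose by 2.17 (limma adjusted p = 0.0266). It stood at 31.5 FPKM in the library labelled K18+Vim+ of MDA-MB-468 and 2.75 FPKM in HCC70 K18+Vim+, against 6.62 and 1.38 FPKM in the K18+K14+ and 5.73 and 1.07 FPKM in the K18+ libraries, so that its K18+Vim+ library was the highest of each line, as for SERPINE2. SERPINA5 and SERPINB4 were the 2 that fell. Both were at the floor in the 3 MDA-MB-468 libraries and passed the filter on low values through HCC70, so these counts are a description, beside 4.54% of all genes called higher and 7.68% called lower. SERPINH1, the collagen chaperone HSP47, was the most abundant of the 7, at 76.4 to 135 FPKM in MDA-MB-468 and 46.7 to 51.6 FPKM in HCC70, and did not pass (limma adjusted p = 0.122).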
